A study of Mus musculus with 6 samples.

Results

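The Wnt pathway genes described here are the 54 rows, of 13595 in the deposited expression table, whose symbols name Wnt ligands, their secretion factors, secreted antagonists, receptors, intracellular transducers or TCF/LEF transcription factors. The rule reads symbols alone and uses no measured value, but the set was proposed with earlier results of these data known. By role they are 12 Wnt ligands, 2 genes of ligand secretion, 6 secreted antagonists, 8 R-spondins, Lgr receptors and linked ubiquitin ligases, 13 receptors and co-receptors, 9 transducers and members of the β-catenin destruction complex, and 4 TCF/LEF factors. The RNA came from CD31-positive cells of the liver of C57BL6/J mice aged 4 weeks, grown in culture. All 6 libraries were from cells given 100 µM indoxyl sulfate, a tryptophan metabolite that activates the aryl hydrocarbon receptor (AHR), together with hypoxia and nutrient deprivation for 6 hours. The groups were 3 libraries labelled male and 3 labelled female, numbered 4, 5 and 6 in each, and the one comparison is between them. Samples given DMSO were not analysed here, so no effect of indoxyl sulfate or hypoxia can be read from these values. The labels do not say whether the numbered replicates are mice, isolations or wells, so each p-value measures the spread between these libraries, which may be technical. They also do not say whether male and female cells were isolated and processed together, so such a batch and the group cannot be told apart.

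Wnt proteins are secreted lipid-modified ligands that bind Frizzled (Fzd) receptors together with the co-receptors Lrp5 or Lrp6. The signal passes through Dishevelled (Dvl), halts the destruction complex of Axin, Apc and Gsk3b, and lets β-catenin (Ctnnb1) enter the nucleus and act with TCF/LEF factors. Branches that do not use β-catenin run through Ror1, Ror2 and Ryk. In the liver, endothelial cells around the central vein are known to supply Wnt2, Wnt9b and the R-spondin Rspo3 to hepatocytes and so to maintain metabolic zonation.

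Reads over the genes of the table numbered from 22303270 to 31189363 per library, and 1 read was worth a normalized read count of 0.0353 to 0.0475. The labels were checked with sex-linked genes. Xist was at 286 ± 46.7 (SD, n = 3) in the female-labelled libraries and 0.323 ± 0.176 (SD, n = 3) in the male-labelled ones, but the Y-linked genes Ddx3y, Uty, Eif2s3y and Kdm5d stood in the female-labelled libraries at 51.3% to 91.5% of their male level. These Y-linked transcripts go against the label, and every direction below rests on it. Male 4 stood apart from male 5 and male 6, with a chi-square per gene of 43.6 and 45.4 against 5.98 between the other two, where sampling alone gives about 1. Cell type markers also differed between the groups. Of 12 tested endothelial markers, 10 were lower and 1 higher in the female-labelled libraries, and their summed value was 2353 to 2467 in the male-labelled libraries and 1220 to 1275 in the female-labelled ones. CD31 itself (Pecam1) was at 407 ± 16.2 against 73.9 ± 0.540 (SD, n = 3). Of 6 tested mesothelial markers, 5 were higher and 1, Krt19, lower in the female-labelled libraries. Msln was at 332 ± 29.6 there against 19.4 ± 1.97, and Wt1 at 12.8 ± 0.990 against 0.101 ± 0.0163 (SD, n = 3), although the summed level of the list, which Krt19 led in the male-labelled libraries, was 501 to 507 against 425 to 520. Of 12 tested markers of stellate cells, mural cells and fibroblasts, 9 were lower and 3 higher, with sums of 2505 to 2886 against 2855 to 3644. Acta2 made up most of the female-labelled sum, at 1694 ± 187 against 78.6 ± 47.9, while Col3a1 was at 226 ± 18.9 against 1266 ± 249 and Pdgfrb at 14.3 ± 1.17 against 133 ± 3.76 (SD, n = 3). Of 4 tested sinusoidal markers, 3 were lower and 1, Gata4, higher (3.75 ± 0.0909 against 32.1 ± 0.858 in the female-labelled libraries, SD, n = 3). The list summed to 40.4 to 42.5 in the female-labelled libraries against 495 to 535, nearly all of it Lyve1 in the male-labelled libraries and most of it Gata4 in the female-labelled ones, and Stab2, Clec4g, Fcgr2b and Clec1b were at or near 0 in every library. Cholangiocyte markers (5 tested, 4 lower and 1 higher) summed to 415 to 503 against 1241 to 2018, though Epcam was below 1 in every library. Hepatocyte markers summed to at most 8.13 and macrophage markers to at most 15.8 in any library, with Emr1 at 0 in each. The part these cell type differences have in the values of the Wnt genes was not tested. In such bulk samples, fewer cells of a type and less RNA per cell cannot be told apart.

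Of the 54 genes, 39 passed the filter on low values, a normalized read count of at least 1 in at least 3 libraries, and 15 did not and were not tested. With limma and Benjamini-Hochberg adjustment over all 12568 genes tested, 29 of the 39 (74.4%) had an adjusted p under 0.05, against 69.3% of all tested genes. Among them 14 were higher and 15 lower in the female-labelled libraries, where each direction held 34.6% of all genes tested. The count of called Wnt genes was thus near the background of this comparison. When a 2-fold difference, a log2 value of 1 or more in size, was required too, 12 of 39 (30.8%) remained, against 20.6% of all tested genes. The 6 higher ones were Wnt2, Wnt9a, Lgr6, Wnt5a, Apc and Wnt2b, and the 6 lower ones were Fzd1, Sfrp1, Fzd6, Lrp5, Porcn and Tcf7l1. Over all tested genes, 8.51% were higher and 12.1% lower by this rule. Wnt2, Wnt2b and Lgr6 were below 1 in every male-labelled library. They passed the filter only through the female-labelled libraries, where they are high, so the share past 2-fold supports no direction or excess. The groups did not overlap for 29 of the 39 genes (74.4%), against 74.1% of all tested genes. The median log2 difference (log2 fold change) of the 39 was -0.11 and the median absolute value 0.58, beside 0.01 and 0.46 over all genes tested. Differences are female-labelled minus male-labelled group means of log2(value + 1), so those of genes with few reads come out smaller than the ratio of their values. Without male 4 the counts were 29 called and 11 past the 2-fold rule, but 75.6% of all genes were then called, so the share of Wnt pathway genes (74.4%) lay below the background rather than above it. For the 11, the share of all genes in that fit is not given, so they cannot be set against a background. With no filter on low values 33 of all 54 genes (61.1%) were called, against 66.8% of the whole table.

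**Figure D1:**
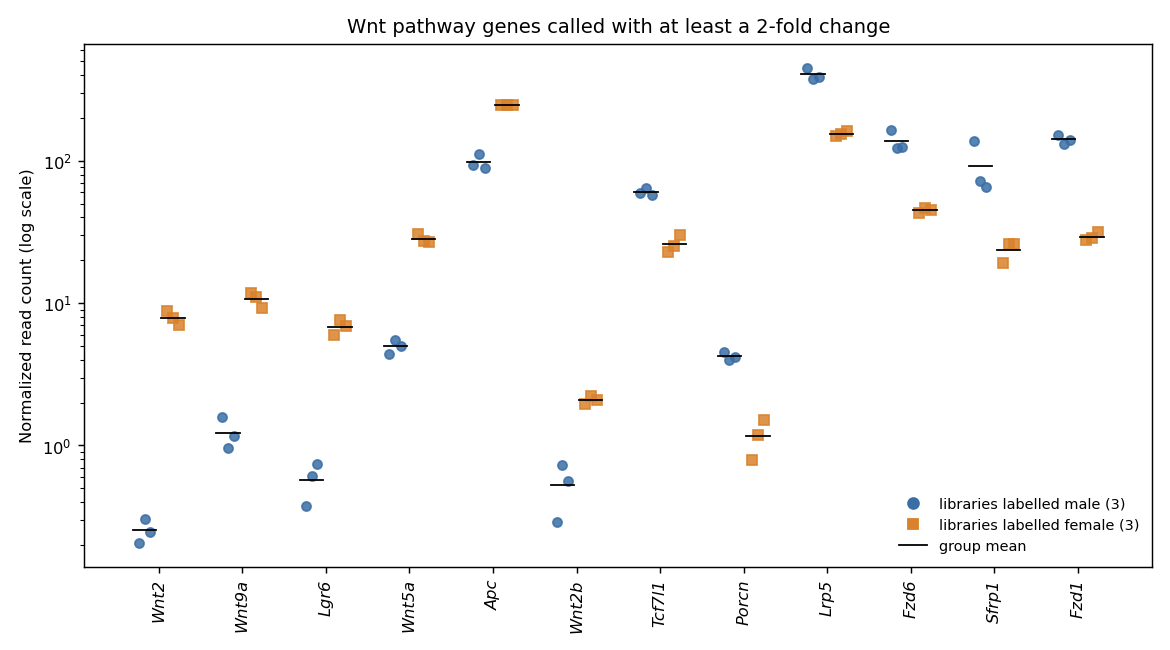
Normalized read count (log axis) of the 12 Wnt pathway genes with a limma adjusted p under 0.05 and an absolute log2 difference of at least 1, with 1 point per library, circles for the male-labelled libraries, squares for the female-labelled ones and lines for group means. For each gene the 3 points of one group lie wholly above or below the 3 of the other.

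**Figure D2:**
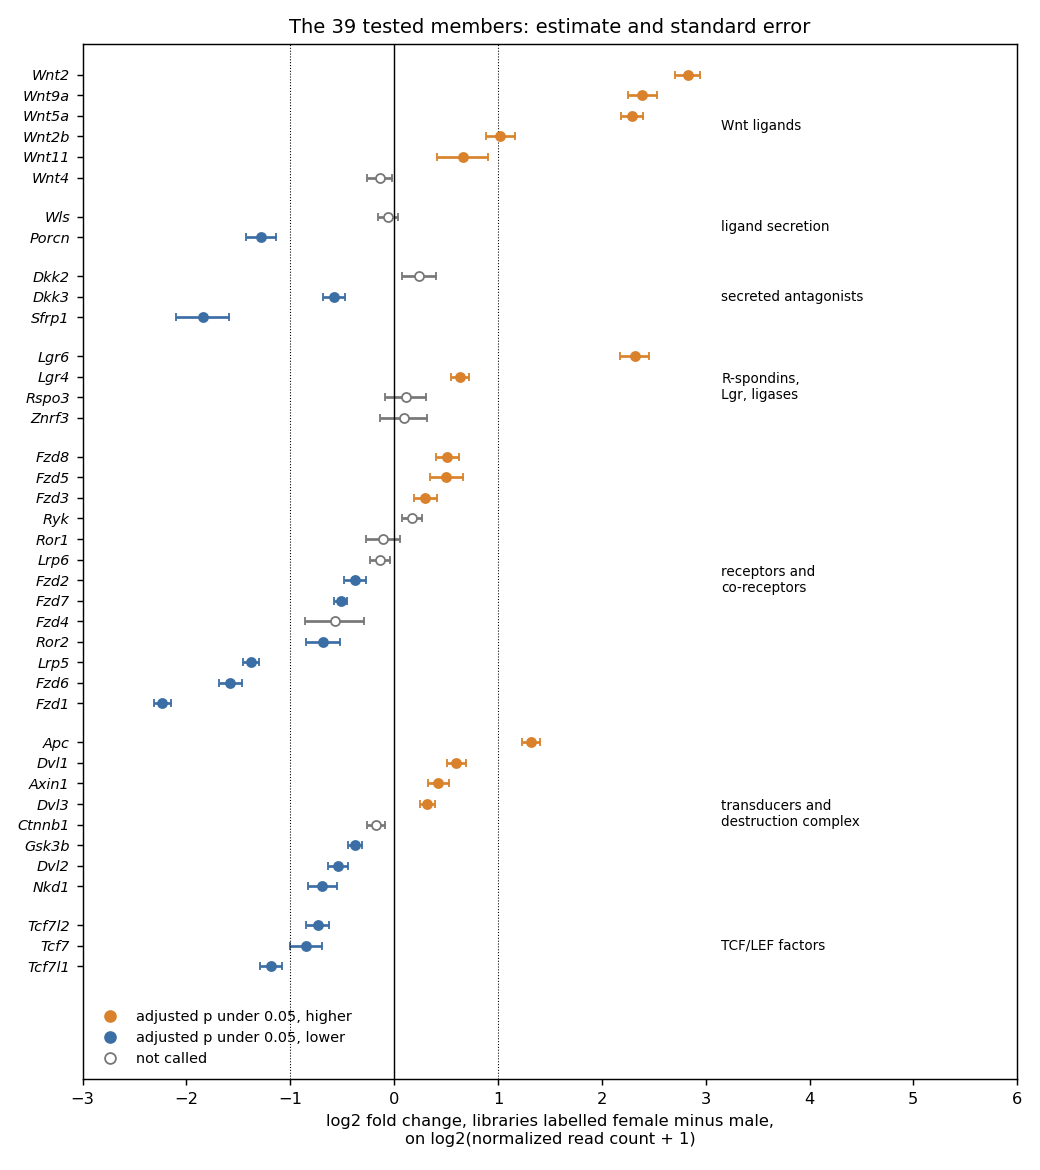
Log2 fold change (libraries labelled female minus male, on the log2(value + 1) scale) with its standard error for the 39 tested genes, grouped by role. Filled points passed the threshold (orange higher, blue lower), open points did not, and dotted lines mark a log2 difference of 1 and -1. Among the ligands 5 of 6 lie to the right of 0, and the 3 TCF/LEF factors lie to the left.

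RefSeq promoter sequences (build GRCm38.p6) matched 34 of the 54 genes, and 6 of the 12 genes past the 2-fold rule. The 250 bases before the annotated start are printed, as background on their base composition and motifs, for the 3 of these with the largest increase and the 1 with the largest decrease. Capitals mark the core motif of AHR sites, GCGTG, or of hypoxia-inducible factor sites, ACGTG, on either strand. The cores share the letters CGTG, and ACGTG can match both strands of a single site, CACGTG.
Wnt2, GRCm38.p6 chr6:18030446-18030695, minus strand: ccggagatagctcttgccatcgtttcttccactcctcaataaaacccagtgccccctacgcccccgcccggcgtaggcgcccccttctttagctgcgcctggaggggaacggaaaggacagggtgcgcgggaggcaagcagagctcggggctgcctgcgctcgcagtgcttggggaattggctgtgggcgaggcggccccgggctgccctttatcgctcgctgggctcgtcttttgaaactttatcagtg
Wnt9a, GRCm38.p6 chr11:59306680-59306929, plus strand: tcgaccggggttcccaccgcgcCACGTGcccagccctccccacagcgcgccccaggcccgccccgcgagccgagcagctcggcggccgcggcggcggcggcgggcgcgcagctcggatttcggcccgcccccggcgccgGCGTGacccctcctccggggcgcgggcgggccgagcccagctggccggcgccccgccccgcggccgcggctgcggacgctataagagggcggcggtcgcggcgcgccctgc
Lgr6, GRCm38.p6 chr1:135105277-135105526, minus strand: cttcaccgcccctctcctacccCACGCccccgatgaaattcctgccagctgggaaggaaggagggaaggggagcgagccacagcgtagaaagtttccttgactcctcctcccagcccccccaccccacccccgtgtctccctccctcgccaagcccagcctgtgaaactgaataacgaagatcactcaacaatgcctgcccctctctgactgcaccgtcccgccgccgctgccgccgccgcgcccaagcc
Fzd1, GRCm38.p6 chr5:4758217-4758466, minus strand: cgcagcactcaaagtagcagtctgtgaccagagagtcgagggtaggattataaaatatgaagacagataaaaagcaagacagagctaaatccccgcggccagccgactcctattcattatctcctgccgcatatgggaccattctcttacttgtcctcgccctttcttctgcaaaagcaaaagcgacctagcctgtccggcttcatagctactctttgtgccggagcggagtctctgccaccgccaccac
The windows of Wnt2 and Fzd1 held neither core. Wnt9a held 1 match to GCGTG and a palindrome that matches ACGTG on both strands, and Lgr6 held 1 match to GCGTG. The 2 further genes, Wnt2b and Tcf7l1, each held 1 match to GCGTG and none to ACGTG. Among the 34 matched genes, 18 (52.9%) had GCGTG and 6 (17.6%) had ACGTG in this window, against 28.2% and 16.6% of all 27025 genes with a promoter of the same length. The GC content of these windows was also higher, with a median of 68.0% against 52.0% of all. CTTTGAA or CTTTGAT, forms of the TCF/LEF motif, occurred on either strand in 1 of the 34 and in 7.67% of all, and in none of the 6.

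The called Wnt ligands were all higher in the female-labelled libraries. Wnt2, Wnt9a and Wnt5a were higher by 5.68-fold to 31.3-fold, and Wnt2b and Wnt11 by less. Of 6 tested ligands 5 were called (83.3%, against 69.3% of all tested genes), all higher, and 4 of them past 2-fold. The median log2 difference of the 6 was 1.66. Wnt2 and Wnt2b passed the filter only through the female-labelled libraries, where they are high. Wnt9a and Wnt11 needed those libraries to pass, while Wnt4 and Wnt5a passed in either group. The count, the number past 2-fold and the median are thus no support for a direction over all 12.

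Wnt2, a β-catenin-activating ligand of liver endothelium, had normalized read counts of 0.207, 0.305 and 0.247 in male 4, 5 and 6. In the female-labelled libraries it had 8.84, 7.82 and 7.08. Every female-labelled library was far above every male-labelled library, which held between 5 and 8 reads each. The ratio of the means was 31.3 and the log2 difference 2.83 (standard error 0.12, limma adjusted p 3.08e-07). Wnt9a was at 1.58, 0.953 and 1.17 in the male-labelled libraries and at 11.8, 11.0 and 9.21 in the female-labelled ones. The groups were apart, with a ratio of 8.67 and a log2 difference of 2.39 (standard error 0.14, limma adjusted p 2.10e-06). Wnt5a, the main ligand of branches that do not use β-catenin, was the ligand with the most reads. Its values were 4.40, 5.49 and 5.01 against 30.4, 27.2 and 27.0. It was 5.68-fold higher in the female-labelled libraries, with groups apart and a log2 difference of 2.29 (standard error 0.10, limma adjusted p 4.77e-07). Wnt2b, a close relative of Wnt2, was at 0.290, 0.724 and 0.565 against 1.95, 2.21 and 2.09, with groups apart. Its log2 difference was 1.02 (standard error 0.14, limma adjusted p 0.000225).

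Wnt11, another ligand of the β-catenin-independent branches, stood at 0.332, 0.496 and 1.38 in the male-labelled libraries and at 2.24, 1.81 and 1.04 in the female-labelled ones. The groups overlapped, because male 6 lay above female 6. Its log2 difference of 0.66 (standard error 0.25, limma adjusted p 0.0417) passed the threshold narrowly. It lost the call in edgeR's quasi-likelihood test on recovered reads (adjusted p 0.0621), with the replicate block and without any one of male 4, male 5, female 4 or female 5. Wnt4, with 2.12 ± 0.132 against 1.84 ± 0.264 (SD, n = 3), did not pass (log2 difference -0.14, limma adjusted p 0.320).

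The 6 ligands under the filter had at most 28 reads in a library. Wnt7a held 0, 1 and 0 reads in the male-labelled libraries and 14, 12 and 16 in the female-labelled ones. Scaled for depth, the summed reads gave a ratio of 48.7, with a 95% exact interval of 8.28 to 1970.5 that covers counting error only and treats each read as an independent molecule. In edgeR's quasi-likelihood test over genes kept by its own filter, Wnt7a had an adjusted p of 0.000242. Wnt10a (19 and 49 summed reads, edgeR adjusted p 0.0510), Wnt10b (25 and 33, 0.214) and Wnt5b (74 and 44, 0.134) did not pass there. Wnt7b held 4 and 5 reads in all. Wnt9b, one of the ligands known from the central vein, had a single read in all 6 libraries, in female 4.

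Levels of different ligands were compared per kilobase of the longest transcript. Summed over the 12 ligands, this value was 2.69 ± 0.238 in the male-labelled libraries and 13.3 ± 1.07 in the female-labelled ones (SD, n = 3), a ratio of 4.93. The exact two-sided permutation test gave p = 0.1, the smallest that 3 against 3 libraries allow, here and for each share below that gives this p. The mix of ligands differed as well. Wnt2 made up 4.15% ± 0.623 of the sum in the male-labelled libraries and 26.4% ± 0.852 in the female-labelled ones (SD, n = 3, exact permutation p = 0.1). Wnt9a stood at 14.02% ± 4.87 and 24.2% ± 1.24, and Wnt5a, which led in both groups, at 26.3% ± 1.75 and 30.3% ± 1.16 (SD, n = 3, exact permutation p = 0.1 for each). Wnt4 took 18.9% ± 2.86 in the male-labelled libraries against 3.34% ± 0.727, and Wnt5b 14.8% ± 2.11 against 2.08% ± 0.677 (SD, n = 3, exact permutation p = 0.1 for each). The shares of Wnt4 and Wnt5b were thus smaller in the female-labelled libraries, while neither gene's own level passed a test.

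The 2 genes of ligand secretion differed in level and in result. Porcn, the acyltransferase that attaches the lipid to Wnt proteins, was weakly expressed, at 4.52, 4.00 and 4.17 in the male-labelled libraries. In the female-labelled libraries it was at 0.789, 1.19 and 1.52, below every male value. It fell by 1.28 on the log2 scale (standard error 0.15, limma adjusted p 8.11e-05), a 3.62-fold lower mean. Wls, the carrier that takes Wnt proteins to the cell surface, was abundant and did not pass. Its mean was 357 ± 49.2 against 341 ± 8.30 (SD, n = 3), with a log2 difference of -0.06 (standard error 0.09, limma adjusted p 0.586) that changed sign without male 4 and under quantile normalization (0.05 in each).

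Among secreted antagonists, Sfrp1 and Dkk3 were lower in the female-labelled libraries and Dkk2 did not pass. Sfrp1, a decoy that binds Wnt proteins, was at 138, 72.6 and 65.9 in the male-labelled libraries, where male 4 was well above the others. It was at 19.3, 25.9 and 26.2 in the female-labelled ones, and the groups did not overlap. The log2 difference came to -1.84 (standard error 0.26, limma adjusted p 0.000278), and without male 4 it was -1.51 (limma adjusted p 2.18e-06). Dkk3, a member of the Dickkopf family, had values of 23.3, 21.2 and 18.1 against 13.2, 13.97 and 13.4. Each female-labelled library was below each labelled male, and the log2 difference was -0.58 (standard error 0.10, limma adjusted p 0.00122). Dkk2, a Dickkopf protein that binds Lrp5 and Lrp6, was at 1.74 ± 0.298 against 2.26 ± 0.611 (SD, n = 3, limma adjusted p 0.218). The other 3 were under the filter. Notum, an esterase that removes the lipid from Wnt proteins, held 21, 44 and 48 reads in the male-labelled libraries and 4, 11 and 16 in the female-labelled ones. Its adjusted p in edgeR's quasi-likelihood test was 0.0133, but 38.1% of its exonic bases overlap 2 genes annotated on the opposite strand, and the counting is not stated to use strand. Sfrp2 and Sfrp4 had at most 10 reads in any library.

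R-spondins bind Lgr receptors and keep the ligases Rnf43 and Znrf3 from removing Frizzled from the cell surface. Of 4 tested genes of this group, Lgr6 and Lgr4 were higher in the female-labelled libraries, and Rspo3 and Znrf3 did not pass. Lgr6 passed the filter only through the female-labelled libraries, where it is high, so this count supports no direction for the group. Lgr6 was at 0.373, 0.610 and 0.742 in the male-labelled libraries and at 5.98, 7.60 and 6.93 in the female-labelled ones. No library of one group came near the other, the ratio of the means was 11.9 and the log2 difference 2.32 (standard error 0.14, limma adjusted p 1.96e-06). Lgr4, the most abundant receptor of the group, had values of 25.9, 22.3 and 23.7 against 35.3, 38.0 and 40.2. It was higher in each female-labelled library, by a log2 difference of 0.64 (standard error 0.09, limma adjusted p 0.000224). Per kilobase Lgr4 still led Lgr6, at 7.47 against 1.02 in the female-labelled libraries. Lgr5, a stem cell marker and β-catenin target, had between 1 and 6 reads per library.

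Rspo3, the R-spondin known from central vein endothelium, was at 34.3, 21.0 and 20.2 in the male-labelled libraries and at 22.5, 27.2 and 30.4 in the female-labelled ones. The groups overlapped through male 4, and the log2 difference was 0.11 (standard error 0.20, limma adjusted p 0.629). Without male 4 it was 0.35 and passed the threshold (limma adjusted p 0.0172), and 13.1% of the exonic bases of Rspo3 overlap a gene on the opposite strand. Znrf3 was at 5.90 ± 2.33 against 6.06 ± 0.150 (SD, n = 3, limma adjusted p 0.739), and its log2 difference of 0.09 became -0.19 without male 4. Rspo1, Rspo2 and Rnf43 were under the filter with at most 10 reads in a library.

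All 13 receptors and co-receptors were tested, of which 6 were lower, 3 higher and 4 not called. The share called, 69.2%, was that of the background (69.3% of all tested genes). The abundant receptors Fzd1, Fzd6 and Fzd7 and the co-receptor Lrp5 were lower in the female-labelled libraries. The 3 higher ones, Fzd3, Fzd5 and Fzd8, were each weaker per kilobase than these in both groups. Fzd1 had values of 153, 132 and 139 in the male-labelled libraries and of 27.8, 28.9 and 31.4 in the female-labelled ones. It had the largest decrease of the 39 tested Wnt pathway genes, with a 4.82-fold lower mean and a log2 difference of -2.23 (standard error 0.08, limma adjusted p 1.30e-07). Fzd6 was at 164, 122 and 126 against 43.1, 46.5 and 45.4. The lowest male value was more than double the highest female one, and the log2 difference was -1.58 (standard error 0.11, limma adjusted p 4.77e-06). Lrp5, which binds Wnt together with Frizzled, was at 451, 379 and 390 against 149, 154 and 162. Again no male-labelled value came near a female-labelled one, with a log2 difference of -1.38 (standard error 0.08, limma adjusted p 1.44e-06). Fzd7 differed less, with values of 119, 121 and 131 against 89.3, 84.4 and 84.6 and a log2 difference of -0.52 (standard error 0.06, limma adjusted p 0.000129).

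Ror2, a Wnt5a receptor, was at 3.98, 6.22 and 6.32 in the male-labelled libraries and at 2.61, 3.23 and 3.13 in the female-labelled ones. The groups did not overlap (log2 difference -0.69, standard error 0.17, limma adjusted p 0.00601). Fzd8 had values of 4.81, 4.99 and 5.05 against 6.60, 8.22 and 7.74, a log2 difference of 0.51 (standard error 0.11, limma adjusted p 0.00304). The other called receptors were Fzd2 (-0.38), Fzd5 (0.50) and Fzd3 (0.30), given as log2 differences, each with groups apart. The calls of Fzd3 and Fzd5 were each lost in 4 of the 6 fits that left out a library, with adjusted p between 0.0571 and 0.125 there, and 17.8% of the exonic bases of Fzd5 overlap a gene on the opposite strand.

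Not called were Fzd4, Lrp6, Ror1 and Ryk. Fzd4, the endothelial receptor of Norrin, was at 117, 54.9 and 53.5 in the male-labelled libraries and at 38.8, 46.5 and 57.0 in the female-labelled ones. Male 4 was more than double each of the 5 other libraries, and female 6 lay above male 5 and male 6. This gave a log2 difference of -0.57 (standard error 0.28, limma adjusted p 0.104), and -0.21 without male 4. Lrp6, the partner of Lrp5, was at 169 ± 25.1 against 153 ± 2.59 (SD, n = 3), a log2 difference of -0.13 (standard error 0.10, limma adjusted p 0.251), and of -0.02 without male 4. Ryk, an atypical receptor of the β-catenin-independent branches, was at 149.6 ± 20.5 against 168 ± 7.10 (SD, n = 3, limma adjusted p 0.133) and was called higher without male 4 (log2 difference 0.28, limma adjusted p 0.000507) and under quantile normalization of all 6 libraries (0.27, limma adjusted p 0.0106). Ror1 was weak in both groups, at 3.26 ± 0.730 against 2.94 ± 0.493 (SD, n = 3, limma adjusted p 0.572).

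Per kilobase of the longest transcript, the 8 Frizzled genes summed to 115 ± 13.6 in the male-labelled libraries and 54.8 ± 2.37 in the female-labelled ones (SD, n = 3, exact permutation p = 0.1). Fzd1, Fzd6 and Fzd7 made up most of both sums. In the male-labelled libraries Fzd1 took 29.3% ± 1.30, Fzd6 27.4% ± 1.32 and Fzd7 23.9% ± 3.41 (SD, n = 3). In the female-labelled ones Fzd7 led with 34.7% ± 2.47, followed by Fzd6 with 19.0% ± 0.743, while Fzd4 (12.8% ± 1.91) and Fzd1 (12.7% ± 0.257) could not be ordered within their spread (SD, n = 3). The exact permutation p between the groups was 0.1 for the shares of Fzd1, Fzd6 and Fzd7 and 0.3 for that of Fzd4. Among co-receptors, Lrp5 stood at 45.7 per kilobase and Lrp6 at 18.0 in the male-labelled libraries, and at 17.4 and 16.3 in the female-labelled ones. The longest Lrp5 transcript is not its longest coding one, and on the coding one Lrp5 stood at 78.7 and 30.1.

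**Figure D3:**
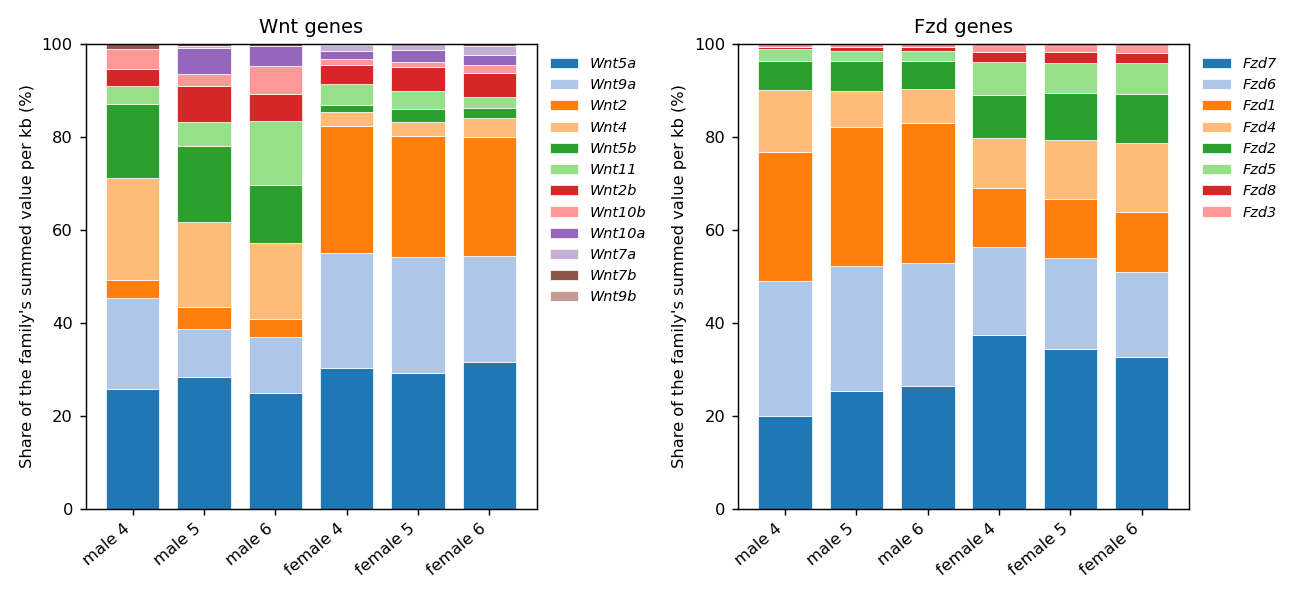
Share (%) of each gene in the summed normalized read count per kilobase of its family, for the 12 Wnt ligands (left) and the 8 Frizzled receptors (right), with 1 bar per library. Wnt2 takes 25.7% to 27.3% of the ligand sum in the female-labelled libraries against 3.79% to 4.87% in the male-labelled ones, and Fzd1 12.6% to 13.0% of the receptor sum against 27.8% to 30.2%.

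Of the 8 tested transducers and members of the destruction complex, Apc, Dvl1, Axin1 and Dvl3 were higher and Nkd1, Dvl2 and Gsk3b lower in the female-labelled libraries. The share called was 87.5%, against 69.3% of all tested genes. Apc, the scaffold of the destruction complex, had the one change past 2-fold. It was at 93.7, 112 and 88.4 in the male-labelled libraries and at 245, 246 and 246 in the female-labelled ones. The 3 libraries labelled female were nearly equal and all above the others, with a ratio of 2.50 and a log2 difference of 1.32 (standard error 0.09, limma adjusted p 3.79e-06). Axin1, the limiting scaffold of the same complex, had values of 35.5, 44.2 and 44.1 against 53.2, 59.5 and 54.1. It was higher by a log2 difference of 0.43 (standard error 0.10, limma adjusted p 0.00465), without overlap. Gsk3b, the kinase of the complex, went the other way, with values of 276, 245 and 254 against 196, 190.1 and 209.9. Its log2 difference was -0.38 (standard error 0.07, limma adjusted p 0.00121).

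The 3 Dishevelled genes did not share a direction. Dvl1 was at 29.3, 28.9 and 30.0 in the male-labelled libraries and at 51.0, 43.6 and 41.1 in the female-labelled ones, a log2 difference of 0.60 (standard error 0.09, limma adjusted p 0.000411). Dvl3 was higher by 0.32, from 36.0 ± 2.004 to 45.0 ± 1.67 (SD, n = 3, limma adjusted p 0.00409). Dvl2 was lower, at 29.8, 27.0 and 28.6 against 21.7, 17.5 and 18.7, a log2 difference of -0.54 (standard error 0.10, limma adjusted p 0.00120). The groups were apart for each of the 3, but 19.7% of the exonic bases of Dvl2 overlap other genes, mainly Acadvl on the opposite strand. Per kilobase of the longest transcript, Dvl3 made up 43.3% ± 1.42 and 46.0% ± 2.30 of the sum of the 3 (SD, n = 3, exact permutation p = 0.3) and led in both groups. The order depends on the transcript: per kilobase of the longest coding one, Dvl1 stood at 8.76 and Dvl3 at 9.03 in the male-labelled libraries, and at 13.5 and 11.3 in the female-labelled ones. Nkd1, a Dishevelled inhibitor and a β-catenin target, was weak, at 2.65, 3.58 and 3.74 against 1.49, 1.94 and 1.57. The log2 difference came to -0.69 (standard error 0.14, limma adjusted p 0.00231). β-catenin itself (Ctnnb1) had the most reads of the 54 genes and did not pass. It was at 1102, 902 and 934 in the male-labelled libraries and at 866, 854 and 875 in the female-labelled ones. All 3 female values were below all male ones, and the means differed by about 1 male SD (979 ± 108 against 865 ± 10.6, SD, n = 3, log2 difference -0.17, standard error 0.08, limma adjusted p 0.0960). Without male 4 the log2 difference was -0.09, and 15.1% of the exonic bases of Ctnnb1 overlap other genes, mainly Ulk4 on the opposite strand.

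Of the TCF/LEF factors, which carry β-catenin to DNA, the 3 tested were lower in the female-labelled libraries. Tcf7l1, which acts mostly as a repressor, was at 59.5, 64.7 and 57.2 in the male-labelled libraries and at 22.8, 25.3 and 30.3 in the female-labelled ones. The highest female value was well below the lowest male one, and the log2 difference was -1.19 (standard error 0.11, limma adjusted p 2.20e-05). Tcf7l2 was at 26.0, 25.1 and 25.4 against 13.6, 13.8 and 17.7. This gave a log2 difference of -0.73 (standard error 0.11, limma adjusted p 0.000393). Tcf7, best known from T cells, was weaker, at 2.03, 2.90 and 3.04 against 1.25, 1.02 and 0.807. The groups did not overlap, and the log2 difference was -0.85 (standard error 0.15, limma adjusted p 0.00113).

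Lef1 went the other way but was under the filter. It held 1, 3 and 0 reads in the male-labelled libraries and 18, 17 and 20 in the female-labelled ones. Scaled for depth the summed reads gave a ratio of 16.0 (95% exact interval 5.89 to 60.6, counting error only), and edgeR's quasi-likelihood test gave an adjusted p of 0.000463. Per kilobase, Lef1 reached 1.68% ± 0.0499 of the TCF/LEF sum in the female-labelled libraries, against 64.7% ± 1.36 for Tcf7l1 (SD, n = 3). Of the exonic bases of Lef1, 13.7% overlap a gene on the opposite strand.

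Several of the 54 genes are themselves known targets of β-catenin and part of its negative feedback. Axin2, the most widely used of these, had 7, 11 and 9 reads in the male-labelled libraries and 9, 5 and 7 in the female-labelled ones. The depth-scaled ratio was 0.903 with a 95% exact interval of 0.485 to 1.66, which covers counting error only and leaves out the spread between libraries, so at this depth no direction can be given. Rnf43 and Lgr5 were as weak, at 7 reads or fewer in a library, while Znrf3 did not pass and Nkd1 and Tcf7 were lower. Of these feedback genes and targets, Lef1 was the one with more reads in every female-labelled library than in any labelled male.

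Among genes of the pathway outside the 54, regulators outside the cell and at the membrane were mostly lower in the female-labelled libraries. Of 20 genes on the list, 16 were in the table and 15 tested, and 12 were lower and 3 higher (median log2 difference -1.41, beside 0.01 over all genes tested). Frzb, a secreted decoy related to the Sfrp proteins, was at 237, 183 and 186 against 11.95, 12.3 and 17.1. Its log2 difference was -3.79 (standard error 0.15, limma adjusted p 2.25e-07), with every female value far below the male ones. Gpc3, a glypican that binds Wnt proteins, was at 41.4 ± 2.78 against 3.75 ± 0.407 (SD, n = 3, log2 difference -3.16), and Igfbp4, which binds Fzd8 and Lrp6, at 584 ± 119 against 88.3 ± 15.1 (SD, n = 3, log2 difference -2.70). Gpr124, Reck and Tspan12, membrane cofactors of Wnt7 or Norrin signals in brain and retinal endothelium, were named after their values were seen. Their log2 differences were -2.61, -0.91 and -1.38, each in a direction shared with most endothelial markers, and the cause was not tested.

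Components of the cytoplasm and nucleus were called in both directions, 12 higher and 11 lower of 31 tested (median 0.01). Cxxc5, a Dishevelled inhibitor, was at 149.5 ± 4.78 against 24.0 ± 2.72 (SD, n = 3, log2 difference -2.60). Bcl9l, a cofactor that binds β-catenin, was at 367 ± 21.7 against 128 ± 8.80 (SD, n = 3, log2 difference -1.52), and Dact3, another Dishevelled antagonist, had a log2 difference of -1.48. Of 14 tested planar cell polarity genes, which serve a β-catenin-independent branch, 7 were lower and 3 higher (median -0.34). Among those with a mean value of at least 5, Fuz (-1.80), Daam2 (-1.66) and Prickle1 (-1.21) had the largest changes, and the weaker Celsr3, named after its value was seen, had -1.45. Of 14 tested β-catenin targets outside the 54, 7 were higher, 1 was lower and 6 were not called (median 0.40). Myc was at 81.5, 35.5 and 30.6 against 165, 152 and 172, with a log2 difference of 1.84 (standard error 0.31, limma adjusted p 0.000771) and male 4 above the other male libraries. Id2 was higher by 1.76. The 1 lower gene, Plvap, was at 142 ± 19.5 against 8.20 ± 2.62 (SD, n = 3, log2 difference -3.99). Plvap is an endothelial gene, known to be repressed by Wnt signals in brain vessels, and its direction was shared with most endothelial markers. The cause of its lower value was not tested. Myc, Ccnd1 and Id2 are also induced by many other signals. Of these 4 lists, 100%, 74.2%, 71.4% and 57.1% of tested genes were called in the order given, beside 69.3% of all genes.

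**Figure D4:**
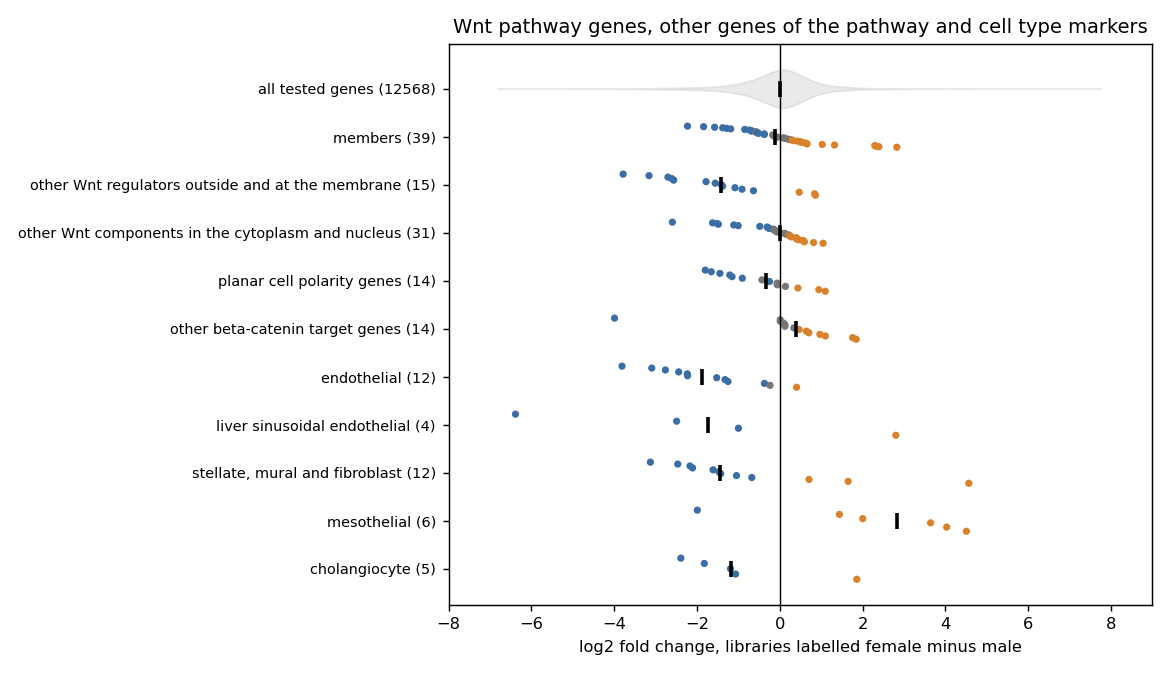
Log2 fold change (libraries labelled female minus male) of each tested gene in the 54 Wnt pathway genes, in 4 lists of other genes of the pathway and in 5 lists of cell type markers, with the number tested in brackets. The grey shape is the distribution over all 12568 tested genes, ticks are medians, and colours mark calls (orange higher, blue lower, grey not called). The members spread to both sides of 0, while most regulators outside the cell and most endothelial markers lie to the left.

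In the authors' deposited table, 15 of the 54 genes (27.8%) had a false discovery rate under 0.05, against 25.8% of all its genes. It calls 7 higher and 8 lower in the female-labelled libraries. Of these, 13 were also limma calls in the same direction, and the other 2, Lef1 and Wnt7a, were under the filter here. The false discovery rates of Lef1 and Wnt7a in the authors' deposited table are 0.00234 and 0.00393. Tcf7 (0.0490) and Apc (0.0420) are its weakest calls among the 54, and Wnt2b has a false discovery rate of 0.0662 in the authors' deposited table. With edgeR's quasi-likelihood test on recovered reads over genes kept by its own filter, 31 of 45 tested Wnt pathway genes (68.9%) were called, against 68.0% of all, and 28 of the 29 limma calls were among them, Wnt11 excepted.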

How the data were processed

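Polyadenylated RNA was sequenced after Kapa HyperPrep library preparation, per the labels' protocols, in 3 libraries labelled male and 3 labelled female. The submitters' processing notes name Bowtie2, RSEM, edgeR and the build mm39, without roles. The values the authors deposited are a signal per gene that, as the values show, equals whole reads times 1 factor per library. Division by the lowest positive value of each library gave whole reads for 100% of the values, within 0.01 read. How the listed genes were selected is not given in the sources used here. The deposited score is the authors' signed fold change, and their deposited p-value columns are a p and a false discovery rate.

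Expression was compared with limma 3.58.1 (eBayes with trend) in R 4.3.3 on log2(value + 1), for the genes that reached 1 in 3 or more libraries, with Benjamini-Hochberg adjustment over all of them. edgeR 4.0.16 and DESeq2 1.42.0 on recovered reads were alternatives. The limma and edgeR fits were tested on simulated data. The edgeR fit with filterByExpr was added after the data were seen. Transcript lengths, overlaps and shared sequence came from GENCODE M21 (GRCm38) by symbol, promoters from RefSeq GRCm38.p6. Of the list genes, 5 were found under an older symbol. The members follow a rule on symbols, but that rule and the lists were chosen with earlier results of these data known.

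Values in every library are given for up to 6 called members per role with the largest change. Up to 3 called genes with the largest change and a mean of at least 5 are named per list of other pathway genes. Further members were described after their values were seen. Libraries were not paired by number in the main fit, and 0 columns of values lacked a sample.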

Additional observations from a re-analysis of the deposited data

How the results depend on the processing

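The main fit had 15 alternatives. Wnt2, Wnt2b, Lgr6 and Wnt11 were not tested in the alternative where each library had to hold 10 reads. The call and direction of 26 of the 29 called Wnt pathway genes, including all 12 past the 2-fold rule, held in every alternative that tested the gene. The exceptions were Wnt11, Fzd3 and Fzd5, which lost the call in 15 recomputed values in all, and no called gene changed direction. The number called was 25 where each library had to hold 10 reads, 33 with no filter, and 26 to 29 when one library was dropped. The share of all genes called moved too, to 67.2%, 66.8% and 61.5% to 75.6%, beside 69.4%, 61.1% and 66.7% to 74.4% of the Wnt pathway genes tested. The number past the 2-fold rule ranged from 9 of 36 tested, with 10 reads in each library, to 17 of 45, in edgeR with its own filter. The share of all genes past this rule is given for the main fit only, so the range cannot be set against a background. Of the uncalled genes, 3 changed sign. Wls had a log2 fold change of 0.053 under quantile normalization, and from -0.12 to 0.0502 when one library was dropped. With one library dropped, Rspo3 ran from -0.0183 to 0.35 and Znrf3 from -0.19 to 0.32. The cause was not tested. Libraries that share a number were not more alike by one measure. Across genes, deviations from the group mean correlated at -0.09, -0.03 and -0.17 for numbers 4, 5 and 6. Pairs with unlike numbers ran from -0.03 to 0.12. Deviations from a mean of 3 libraries are tied to each other, so this measure cannot decide whether libraries were paired. With the replicate block 28 of the 39 genes were called and 8314 of all genes, against 29 and 8704, and Wnt11 lost its call. Depth limits the 15 genes under the filter, which had at most 48 reads in a library.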
